A study of Mus musculus with 64 samples.

Results

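The 9 genes described here are *Slc2a1* and *Slc2a4* (glucose transporters GLUT1 and GLUT4), *Hk1* and *Hk2* (hexokinases), *Pfkl* and *Pfkm* (liver-type and muscle-type phosphofructokinase), *Pkm* (pyruvate kinase M), and *Ldha* and *Ldhb* (the A and B subunits of lactate dehydrogenase). They were chosen by name, as isoforms with tissue-specific use and targets of the transcription factor Myc. The choice does not state which of the 9 are such targets. They were found by NCBI gene ID among 36332 distinct IDs, of which 28726 had a read in at least 1 library. All 9 had reads.

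Poly(A)-selected RNA of skeletal muscle, liver and fat labelled omental (adipose tissue here) was sequenced in 64 libraries that form 12 groups. MycKO mice (KO here) came from a cross of a B6.129 strain that carries Gt(ROSA)26Sortm1(cre/ERT2)Tyj with a B6.129S6 strain that carries the floxed allele Myctm2Fwa, so that a tamoxifen-activated Cre placed at a widely expressed locus removes *Myc* in the whole body. WT mice are labelled C57/B6, so genotype and strain cannot be told apart. Mice of both genotypes carry the label of 5 daily doses of tamoxifen at 75 mg/kg, begun at weaning once they weighed at least 15 g. Every 20-month group held 5 libraries. The 5-month groups held 6, except KO muscle, which held 4. Libraries are called by their codes (K or W for the genotype, F, L or S for adipose tissue, liver or muscle). Codes of the older mice carry the number 18, and their age labels say 20 months. No label states that libraries of a group came from separate animals, so each p-value measures the spread between these libraries.

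Glucose enters cells through transporters of the GLUT family: GLUT1 serves basal uptake in many cell types, and GLUT4 is moved to the surface of fat and muscle cells by insulin. Hexokinases trap glucose as glucose 6-phosphate, phosphofructokinase catalyses the committed step of glycolysis, pyruvate kinase makes pyruvate, and lactate dehydrogenase interconverts pyruvate and lactate. The isoforms differ between tissues: muscle is known for HK2, PFKM and PKM, and liver relies on the transporter GLUT2 and on the pyruvate kinase of the *Pklr* gene. Myc is known to bind E-boxes of the sequence CACGTG, and *Ldha* is among its classic targets.

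Values are the deposited CPM (read counts relative to library size, per megaread), which the authors scaled by a factor per library, so that column sums ran from 0.529 to 1.64 times the nominal CPM total. The recovered depth was 15.4 to 28.5 M reads (megareads) per library, with a median of 19.6 M reads. *Myc* itself was lower in KO than in WT at 5 months in adipose tissue (log2 fold change -1.52, adjusted p = 0.017) and liver (-2.38, adjusted p = 0.00093), and not called in muscle (-1.13, adjusted p = 1). At 20 months it was not called in adipose tissue (-0.63, adjusted p = 1), liver (-1.16, adjusted p = 0.547) or muscle (-0.49, adjusted p = 0.663), although in liver the KO libraries (1.12 to 2.92 CPM) all lay below the WT libraries (5.36 to 7.61 CPM), 2.78-fold by the ratio of means. Markers of the labelled tissue were high in its libraries. Transcripts of the epididymis, however, passed 10 CPM in 3 KO and 1 WT adipose libraries at 5 months and in 1 WT muscle library. *Xist*, which is transcribed in female cells, was above 10 CPM in 2 libraries of each 5-month group and in none at 20 months, so age differs together with sex. The 20-month WT muscle library W18S42 held 2788 CPM of summed hepatocyte markers, against 6.09 CPM in W18S41 and 0 in the other 3 libraries of that group. In bulk tissue, fewer cells of a type and less RNA per cell cannot be told apart.

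The letters CACGTG were searched in the RefSeq promoter windows (GRCm38.p6, 250 bases before to 50 after a transcript start), which listed 14 windows for 8 of the 9 genes. The motif reads the same on both strands, and it occurred in 2 of these 14 windows, against 2349 of all 32851 windows (7.15%). A window of *Ldha* holds it 2 times, with first bases 145 and 48 bases before the start, as do 0.594% of all windows (2 or more matches), and a window of *Pfkm* holds it 1 time, 136 bases before the start. The 250 bases before these starts are shown because they are the members' windows with the letters that Myc is known to bind. They lie on the plus strand at chr7:46845554-46845803, inside the listed *Ldha* gene span, and at chr15:98092339-98092588, just before the listed start of *Pfkm*. Capitals mark the motif. A match is a description of letters, and binding was not measured.
Ldha: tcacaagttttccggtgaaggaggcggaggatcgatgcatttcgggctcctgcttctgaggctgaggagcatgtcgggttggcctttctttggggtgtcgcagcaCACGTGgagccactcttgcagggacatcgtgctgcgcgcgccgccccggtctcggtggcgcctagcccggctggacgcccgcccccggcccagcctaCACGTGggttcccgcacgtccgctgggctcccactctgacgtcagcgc
Pfkm: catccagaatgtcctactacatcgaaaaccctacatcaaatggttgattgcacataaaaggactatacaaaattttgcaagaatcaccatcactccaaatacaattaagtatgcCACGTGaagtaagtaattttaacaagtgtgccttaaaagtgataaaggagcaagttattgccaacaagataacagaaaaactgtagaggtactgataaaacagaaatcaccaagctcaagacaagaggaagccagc

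Differences between tissues, up to a log2 fold change of -9.56 (*Slc2a4*, liver against muscle), were larger than any between genotypes or ages, up to -1.58, as the plot of CPM in the 12 groups shows. Muscle held the highest levels of *Slc2a4*, *Hk2*, *Pfkm*, *Pkm* and *Ldhb*, liver held almost no *Slc2a4* and little *Hk2*, and adipose tissue held the highest level of *Hk1*. None of the 9 genes was called different between KO and WT at either age in any tissue. With age, 5 of 52 gene tests were called, all of them lower levels at 20 months. They were *Slc2a1*, *Slc2a4* and *Hk1* in WT muscle, *Slc2a4* in KO muscle and *Ldhb* in KO adipose tissue. Of all genes tested, 7.68%, 1.96% and 3.75% were called lower there, in that order. Without the libraries that hold *Xist*, 1 member was called in WT muscle. Without those with epididymis transcripts, *Hk1* was called higher with age in adipose tissue of both genotypes.

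**Figure D1:**
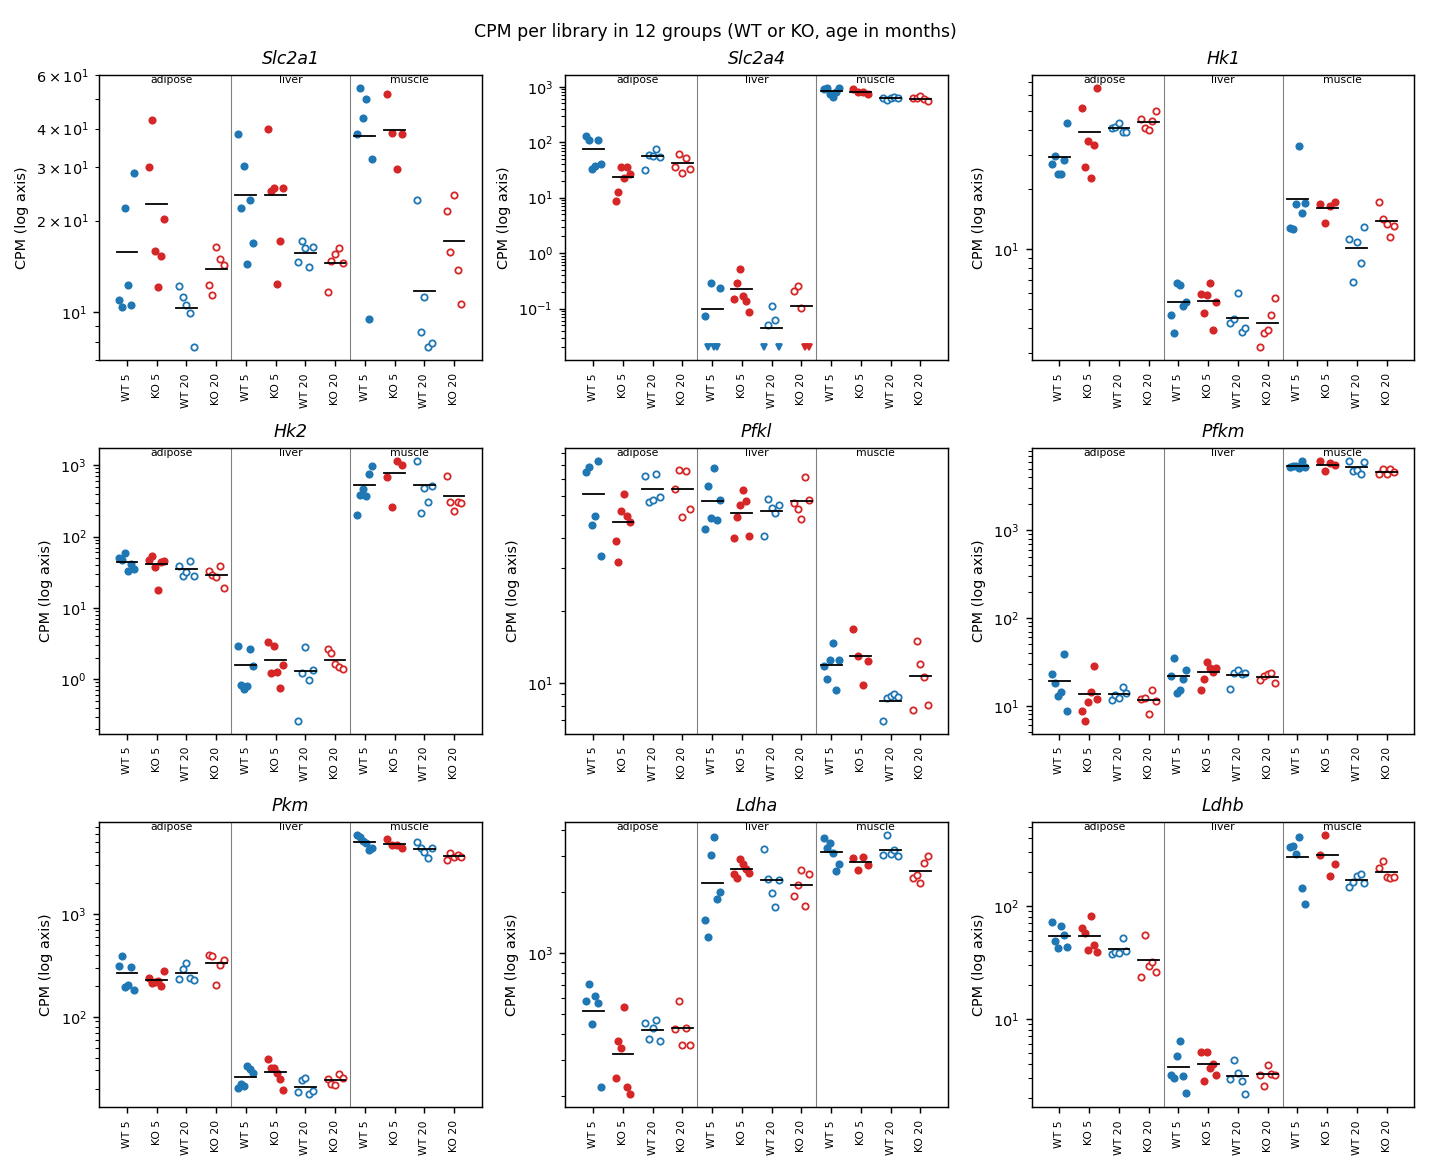
CPM of the 9 genes in each library (log axis), in 12 groups ordered by tissue, with WT in blue, KO in red, filled points at 5 months, open points at 20 months and black lines at the group means; triangles at the bottom are libraries at 0. The muscle groups stand apart from the others for Slc2a4, Hk2, Pfkm and Pkm, while WT and KO groups of a tissue mostly overlap.

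A gene was called where limma on log2(CPM + 1), fitted per tissue over all genes that passed a filter on low values, gave a Benjamini-Hochberg adjusted p under 0.05. Fold changes are on that scale, which understates those of low genes. For KO against WT, 0 of 9 genes were called in adipose tissue at 5 months, where 0.105% of all 14286 genes tested were called, and 0 of 9 at 20 months, where 0.0% were. In liver 0 of 8 tested genes were called at either age, where 0.0696% (5 months) and 0.0232% (20 months) of 12924 genes were called, and in muscle 0 of 9 at either age, where 0.0% and 0.0302% of 13237 genes were. Of these 52 gene tests, 4 had an unadjusted p under 0.05, and the lowest adjusted p was 0.12. The 4 were 2 in adipose tissue at 5 months and 2 in muscle at 20 months. Those comparisons also had the most unadjusted p under 0.05 over all genes, as counted with the other pathway genes below. edgeR called 0 of the 52, and DESeq2 called 1, *Slc2a4* in adipose tissue at 5 months. The interaction of genotype and age was called for 0 of 26 gene tests by limma, edgeR and DESeq2, with 1 unadjusted p under 0.05 in limma, where 0.0% of all genes were called in each tissue. The background is so low that the members' counts of 0 cannot be set apart from it.

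With age, 0 of 9 genes were called in WT adipose tissue (10.8% of all genes called) and 1 of 9 in KO adipose tissue (14.2%, and 3.75% called lower). Neither edgeR nor DESeq2 called any in WT adipose tissue, where 1 had an unadjusted p under 0.05. In liver 0 of 8 were called in WT (7.19%) and in KO (2.99%), with 1 unadjusted p under 0.05 in each, and edgeR and DESeq2 called 0. In muscle 3 of 9 were called in WT (18.6%, and 7.68% called lower) and 1 of 9 in KO (5.57%, and 1.96% called lower). The median log2 fold change with age of the 9 genes was -0.41 in WT muscle and -0.40 in KO muscle, against 0.03 and -0.02 for all genes tested. In adipose tissue it was -0.29 in WT and 0.26 in KO, against 0.01 and 0.06 for all genes. In liver it was -0.17 and -0.23 over 8 tested genes, against -0.01 and -0.02. No median over the list was tested. The WT and KO comparisons at 1 age use the same libraries as the age comparisons, so these values are not independent of each other. Beside the muscle differences, 4 of 6 tested macrophage markers and 2 of 5 endothelial markers were lower at 20 months in WT muscle, and no marker of these lists was called in KO muscle. Summed slow fibre markers ran from 122 to 3998 CPM at 5 months and from 207 to 390 CPM at 20 months in WT muscle, and from 414 to 4773 and from 216 to 947 CPM in KO muscle. The part of these cell types in the differences was not tested.

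**Figure D2:**
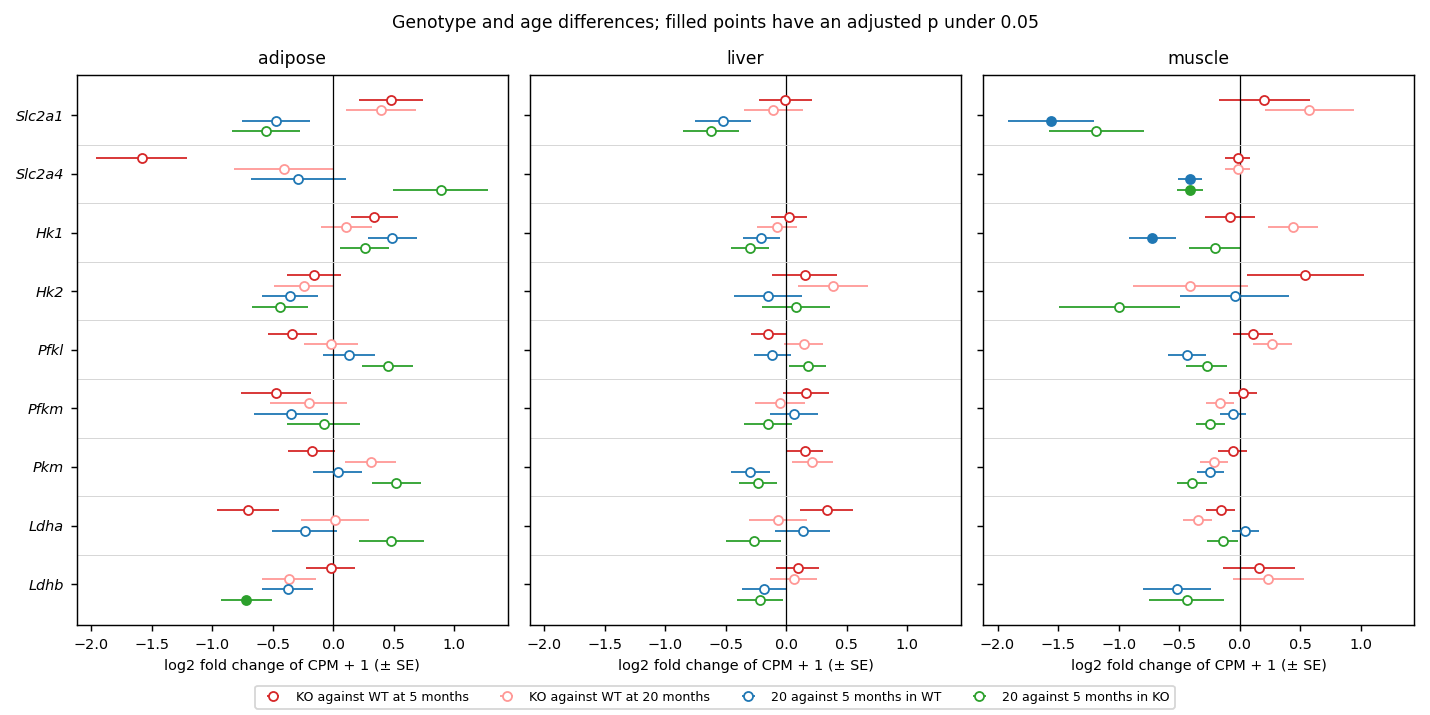
Log2 fold changes of the 9 genes on the log2(CPM + 1) scale, with standard errors, for KO against WT at 5 and 20 months and for 20 against 5 months in WT and KO, in 1 panel per tissue; filled points have an adjusted p under 0.05. The 5 filled points all lie below 0, and Slc2a4 in adipose tissue at 5 months has the largest difference between genotypes, -1.58, without being filled.

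*Slc2a4* encodes GLUT4 and showed the widest range of tissue levels among the transporters. Over all ages and genotypes the 20 muscle libraries held 553 to 967 CPM, with a median of 665, and the 22 adipose libraries held 8.75 to 131 CPM, with a median of 36.8. The 22 liver libraries held 0 to 0.508 CPM, with a median of 0.095, and 31.8% of them were at 0. The 3 tissues did not overlap. In WT mice at 5 months the mean was 831 ± 123 CPM (SD, n = 6) in muscle and 76.8 ± 44.3 CPM (n = 6) in adipose tissue, a log2 fold change of -3.63 ± 0.288 (SE) for adipose tissue against muscle (adjusted p = 1.29e-09). Adipose tissue exceeded liver by 5.93 ± 0.288 (adjusted p = 4.64e-13). Rescaling each library to the same CPM sum raises the median of all genes by 0.97 in adipose tissue against liver and by 0.73 against muscle, and gave 6.53 and -2.76 for *Slc2a4*. In both comparisons the difference moved upward under this rescaling for all 9 members, and against liver those of *Slc2a1* and *Pfkm* (from -0.26 to 0.82) changed sign.

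In muscle, *Slc2a4* was lower at 20 than at 5 months in both genotypes. WT muscle at 5 months ran from 659 to 967 CPM with a median of 846. At 20 months the WT values were 574, 615, 627, 639 and 643 CPM. Each older WT library was below each younger one, and the fold change was -0.41 ± 0.0967 (adjusted p = 0.00945), or 1.34-fold lower by the ratio of means. KO muscle held 745, 809, 817 and 894 CPM at 5 months. At 20 months KO muscle held 553, 601, 615, 624 and 671 CPM. These groups did not overlap either, and the fold change was -0.41 ± 0.107 (adjusted p = 0.0306). The WT difference was called under 21 of 21 alternatives and the KO difference under 11 of 19. With 1 library left out in turn, the KO difference was called in only 3 of 9 fits, with an adjusted p of up to 0.111 (without K5S4284). The KO adjusted p was 0.158 with each library rescaled to the same CPM sum, which moves the median of all genes by 0.12. The WT and KO age differences were the same to 2 decimals, and KO and WT muscle differed by -0.02 at 5 months and by -0.02 at 20 months (adjusted p = 1 and 0.954).

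In adipose tissue at 5 months, *Slc2a4* had the lowest unadjusted p of the 9 genes between genotypes without passing adjustment. WT libraries held 33.2, 37.2, 40.6, 109, 110.3 and 131 CPM, with a median of 74.8, and the lowest 2 are those that hold *Xist*. KO libraries held 8.75 to 36.5 CPM with a median of 24.7. Of the 6 KO libraries, 4 lay below all WT libraries and the other 2 overlapped the lower WT values. The fold change was -1.58 ± 0.376 (adjusted p = 0.12), or 3.22-fold lower by the ratio of means. DESeq2 on recovered reads gave -1.62 with an adjusted p of 0.00419, and without the libraries that hold *Xist* limma gave -2.23 with an adjusted p of 0.0159. That limma fit called 534 of all genes, against 15 with all libraries. Without the libraries that hold epididymis transcripts the limma fold change was -1.67 (adjusted p = 0.157). Summed adipocyte markers were 6979 to 26368 CPM in these KO libraries and 12875 to 27680 CPM in the WT libraries, with 0 of 7 markers called. The 3 KO libraries with epididymis transcripts held the 3 lowest sums (6979, 7831 and 7936 CPM). At 20 months WT adipose tissue held 32.0, 54.3, 56.5, 58.7 and 76.7 CPM of *Slc2a4* and KO adipose tissue 27.9, 32.7, 35.8, 52.7 and 60.8 CPM. These groups overlapped (-0.41 ± 0.412, adjusted p = 1). The difference of the 2 genotype effects was 1.18 ± 0.557 (adjusted p = 0.998).

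*Slc2a1*, the GLUT1 gene, had the most even levels over tissues. The median was 23.8 CPM in muscle, 16.6 in liver and 12.3 in adipose tissue, and none of the 11 pairs of groups next to each other in the order of means was apart. In WT mice at 5 months adipose tissue (15.8 ± 7.66 CPM, n = 6) was below muscle (37.9 ± 16.1, n = 6) by 1.15 ± 0.356 on the log2 scale (log2 fold change -1.15, adjusted p = 0.00749). With each library rescaled to the same CPM sum this was -0.32 (adjusted p = 0.422), and with the number in the code as a block -0.75 (adjusted p = 0.0809). Liver differed from neither tissue by the test (adipose against liver -0.62, adjusted p = 0.127, and 0.46 when rescaled; liver against muscle -0.53, adjusted p = 0.189).

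*Slc2a1* had the largest age difference of the 9 genes, in WT muscle. At 5 months the 6 WT libraries ran from 9.53 to 54.5 CPM with a median of 40.8, and W5S5277, at 9.53, was the only one under 31.9. At 20 months the 5 values were 7.70, 7.92, 8.61, 11.3 and 23.4 CPM. The groups overlapped through W5S5277 and through W18S41, at 23.4 CPM, while the other 4 older libraries were at or below 11.3. The fold change was -1.56 ± 0.354 (adjusted p = 0.00823), or 3.22-fold lower by the ratio of means. It was -1.90 without W5S5277 and -1.82 without W18S41, and -1.33 (adjusted p = 0.0619) without the libraries that hold *Xist*. KO muscle held 29.4, 38.3, 38.7 and 51.9 CPM at 5 months. At 20 months it held 10.7, 13.7, 15.8, 21.5 and 24.2 CPM. The KO ages did not overlap, and the fold change of -1.18 ± 0.393 was not called by limma (adjusted p = 0.0765). DESeq2 called it (-1.19, adjusted p = 0.0319). The age effects of the 2 genotypes differed by 0.37 ± 0.529 (adjusted p = 0.999).

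In the other tissues the age differences of *Slc2a1* were also negative and not called. In liver the fold change was -0.53 in WT (adjusted p = 0.154) and -0.62 in KO (adjusted p = 0.139). WT liver held 14.5 to 38.4 CPM at 5 months and 14.0 to 17.1 CPM at 20 months, and KO liver held 12.4 to 39.9 and 11.7 to 16.3 CPM, so that the spread was wider at 5 months. The KO liver difference was -0.79 (adjusted p = 0.0414) without the libraries that hold *Xist*. In adipose tissue it was -0.47 in WT (adjusted p = 0.254) and -0.56 in KO (adjusted p = 0.172), and the latter was -0.83 (adjusted p = 0.0451) without the libraries that hold *Xist*. KO adipose tissue was above WT by 0.48 at 5 months (adjusted p = 0.482) and by 0.39 at 20 months (adjusted p = 1). After the group means of log2(CPM + 1) were taken off, *Slc2a1* and *Slc2a4* had a Pearson correlation of -0.71 across the 22 adipose libraries. That of *Slc2a1* was -0.80 with *Pfkl* and -0.74 with *Pfkm*. These values describe libraries of 1 tissue, and the part of cell makeup in them was not tested.

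**Figure D3:**
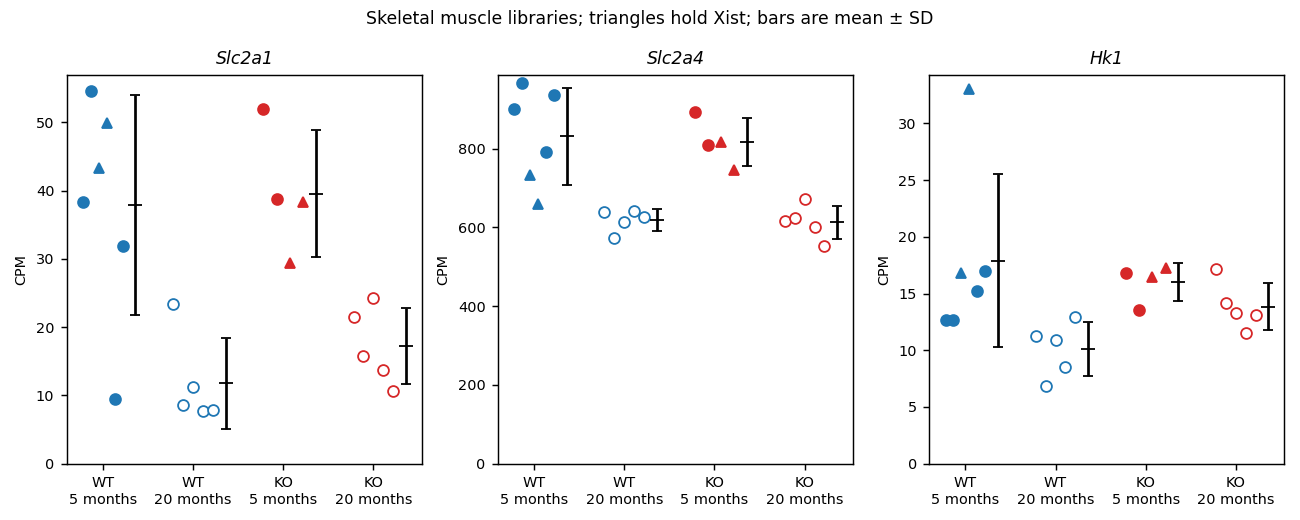
CPM of Slc2a1, Slc2a4 and Hk1 in muscle libraries (linear axes from 0), WT in blue and KO in red, filled at 5 months and open at 20 months, with triangles for libraries that hold Xist and bars for mean ± SD. Slc2a4 at 20 months lies between 553 and 671 CPM, below the lowest library at 5 months of the same genotype, and the 1 young WT library at 9.53 CPM of Slc2a1 sits among the older ones.

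*Hk1* encodes the hexokinase found in most tissues. The median was 39.5 CPM in adipose tissue, 13.5 in muscle and 4.71 in liver. For WT mice of 5 months, adipose tissue (29.3 ± 7.15 CPM, n = 6) was above liver (5.38 ± 1.15, n = 6) by 2.24 ± 0.207 (adjusted p = 9.38e-09) and above muscle (17.9 ± 7.64, n = 6) by 0.73 ± 0.207 (adjusted p = 0.00418). Liver was below muscle (-1.51, adjusted p = 1.81e-06). In the order of the 12 group means the liver groups came last, and the lowest muscle group (WT at 20 months, 10.1 ± 2.40 CPM) did not overlap the highest of them.

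In WT muscle *Hk1* was lower at 20 months. At 5 months the values ran from 12.6 to 33.0 CPM with a median of 16.05, and 33.0 belonged to W5S5042 alone. At 20 months they were 6.85, 8.5, 10.9, 11.3 and 12.9 CPM. Of the 5 older libraries, 4 were below all younger ones, and the fifth, at 12.9 CPM, just overlapped them. The fold change was -0.72 ± 0.195 (adjusted p = 0.0175), and it lost its call without W18S42 (-0.60, adjusted p = 0.0599), without W18S66 (-0.67, adjusted p = 0.0503) and without the libraries that hold *Xist* (-0.49, adjusted p = 0.0782), and with 2 groups in the fit its adjusted p was 0.0657. KO muscle held 13.6, 16.5, 16.8 and 17.3 CPM at 5 months and 11.5, 13.1, 13.3, 14.1 and 17.2 CPM at 20 months. These overlapped (-0.20, adjusted p = 0.574), and the difference between the age effects of the genotypes was 0.52 ± 0.291 (adjusted p = 0.999). In adipose tissue *Hk1* was at 23.9 to 43.1 CPM in young WT and at 38.9 to 43.2 CPM in old WT libraries. That difference was 0.49 (adjusted p = 0.112), and 0.60 (adjusted p = 0.00259) without the libraries with epididymis transcripts. Without those libraries the KO difference was 0.65 (adjusted p = 0.00867), against 0.26 (adjusted p = 0.387) with them. K5F5248 and K5F4284, both with epididymis transcripts, held the highest *Hk1* levels of the young KO adipose libraries, 65.5 and 51.4 CPM.

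*Hk2*, the insulin-responsive hexokinase of muscle and fat, followed another order. Its median was 421 CPM in muscle, 38.0 in adipose tissue and 1.43 in liver, and no library of 1 tissue reached the range of another. At 5 months WT muscle (524 ± 286 CPM, n = 6) was above adipose tissue (44.5 ± 9.86, n = 6), and adipose tissue against muscle had a log2 fold change of -3.37 ± 0.309 (adjusted p = 9.69e-09). Adipose tissue was above liver (1.57 ± 0.978 CPM, n = 6) by 4.20 (adjusted p = 3e-10). *Hk2* varied widely inside muscle groups: 203 to 981 CPM in young WT, 260 to 1143 CPM in young KO, 211 to 1141 CPM in old WT and 225 to 706 CPM in old KO libraries. No genotype or age difference of *Hk2* passed the test. The largest was in KO muscle with age, -0.99 ± 0.502 (adjusted p = 0.216), over values of 260, 693, 994 and 1143 CPM at 5 months and 225, 299.7, 302, 305 and 706 CPM at 20 months. In KO adipose tissue the age difference was -0.44 (adjusted p = 0.196), and -0.72 (adjusted p = 0.0119) without the libraries that hold *Xist*.

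*Pfkl* and *Pfkm* encode liver-type and muscle-type subunits of phosphofructokinase, and their levels went in opposite orders. *Pfkm* ran from 4356 to 6123 CPM in muscle, from 14.2 to 34.9 CPM in liver and from 6.71 to 38.5 CPM in adipose tissue. *Pfkl* ran from 6.97 to 16.7 CPM in muscle, from 39.9 to 77.8 CPM in liver and from 31.8 to 83.4 CPM in adipose tissue. Muscle thus lay apart from the other tissues for both genes, above them for *Pfkm* and below them for *Pfkl*, while liver and adipose tissue overlapped. In WT mice at 5 months *Pfkm* in liver against muscle was -7.94 ± 0.26 (adjusted p = 3.76e-16) and *Pfkl* was 2.15 ± 0.205 (adjusted p = 1.05e-08). Adipose tissue against muscle was -8.19 for *Pfkm* and 2.21 for *Pfkl*. Adipose tissue and liver did not differ by the test in *Pfkl* (0.06, adjusted p = 0.819) or in *Pfkm* (-0.26, adjusted p = 0.392). With each library rescaled to the same CPM sum the 2 differences were 1.18 and 0.82 and both were called, since this scaling moves the median of all genes by 0.97 between these tissues.

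With age, *Pfkl* in WT muscle went from 9.32 to 14.7 CPM (median 12.1) to 6.97, 8.67, 8.73, 8.88 and 9.05 CPM. The ages did not overlap, and the fold change was -0.43 ± 0.156 (adjusted p = 0.0566). edgeR called it at an adjusted p of 0.0413 and DESeq2 at 0.0218. KO muscle held 9.83, 12.4, 13.0 and 16.7 CPM at 5 months and 7.70, 8.11, 10.6, 12 and 14.9 CPM at 20 months, with a difference of -0.27 (adjusted p = 0.323). *Pfkm* in muscle differed by -0.05 in WT (adjusted p = 0.757) and by -0.24 in KO (adjusted p = 0.214). The 2 genes were not called between genotypes or ages in adipose tissue or liver. The adipose library with the highest *Pfkm*, W5F5277 at 38.5 CPM, also held the highest sum of skeletal muscle markers among the 5-month adipose libraries, 943 CPM, against 134184 CPM or more in muscle libraries.

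*Pkm*, which makes pyruvate in most tissues outside the liver, held 3394 to 5962 CPM in muscle, 184 to 401 CPM in adipose tissue and 17.5 to 39.1 CPM in liver. The tissues did not overlap. Young WT adipose tissue (266 ± 83.6 CPM, n = 6) was below muscle (5064 ± 676, n = 6) by a log2 fold change of -4.29 ± 0.19 (adjusted p = 1.58e-13) and above liver (26.0 ± 5.44, n = 6) by 3.27 ± 0.19 (adjusted p = 7.85e-12). In KO muscle the ages did not overlap: the values were 4446, 4735, 4744 and 5437 CPM at 5 months and 3394, 3570.0, 3646, 3779 and 3976 CPM at 20 months. The fold change of -0.40 ± 0.125 was not called (adjusted p = 0.0646) and DESeq2 called it (-0.39, adjusted p = 0.0204). In WT muscle it was -0.24 (adjusted p = 0.132), over 4211 to 5962 and 3515 to 5021 CPM, which overlap. In KO adipose tissue *Pkm* was at 198 to 278 CPM at 5 months and at 205, 319, 354, 391 and 401 CPM at 20 months, a difference of 0.52 ± 0.204 (adjusted p = 0.0845).

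*Ldha* was abundant in liver as well as in muscle. Liver held 1202 to 3710 CPM (median 2312), muscle 2212 to 3802 CPM (median 2966) and adipose tissue 203 to 702 CPM (median 425). Young WT adipose tissue (522 ± 169 CPM, n = 6) was below liver (2201 ± 968, n = 6) by 2.05 ± 0.294 on the log2 scale (log2 fold change -2.05, adjusted p = 4.02e-06) and below muscle (3114 ± 434, n = 6; -2.65, adjusted p = 1.42e-07). Liver against muscle was -0.60 (adjusted p = 0.0729). With each library rescaled to the same CPM sum the 3 differences were -0.91, -1.78 and -0.87, and the last was then called (adjusted p = 0.00679). *Ldha* was not called between genotypes in any tissue. In muscle at 20 months KO libraries held 2212, 2319, 2401, 2749 and 2973 CPM and WT libraries 2993, 3011, 3046, 3184 and 3802 CPM. All KO libraries were below all WT libraries, by -0.34 ± 0.119 (adjusted p = 0.295), and no alternative called it. The highest WT value, 3802 CPM, is of W18S42, the library with hepatocyte markers. In adipose tissue at 5 months KO libraries held 203 to 541 CPM (median 292) and WT libraries 221 to 702 CPM (median 575), a difference of -0.70 ± 0.256 (adjusted p = 0.329). These overlapped. Epididymis transcripts were held by 3 of these 6 KO libraries and by 1 of the 6 WT libraries, W5F5299, which had the lowest WT value. In liver at 5 months the WT libraries ranged from 1202 to 3710 CPM and the KO libraries from 2323 to 2903 CPM, with a difference of 0.33 (adjusted p = 0.819).

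*Ldhb*, whose subunit predominates in oxidative tissues, held 104 to 427 CPM in muscle, 23.6 to 81.3 CPM in adipose tissue and 2.14 to 6.44 CPM in liver. The tissues did not overlap, and in WT mice at 5 months liver against muscle was -5.72 ± 0.289 (adjusted p = 4.61e-13), adipose tissue against liver 3.57 (adjusted p = 1.32e-09) and adipose tissue against muscle -2.15 (adjusted p = 1.89e-06). In KO adipose tissue *Ldhb* was lower at 20 months. At 5 months the KO values ran from 38.7 to 81.3 CPM with a median of 51.3. At 20 months they were 23.6, 25.9, 29.3, 32.0 and 55.2 CPM. Of the older libraries, 4 were below all younger ones and K18F27, at 55.2 CPM, overlapped them. The fold change was -0.72 ± 0.212 (adjusted p = 0.03). It was called with 5 of 11 libraries left out in turn, with an adjusted p of up to 0.101 (without K18F26), by edgeR and DESeq2, and not with 2 groups in the fit (adjusted p = 0.0944). In WT adipose tissue the difference was -0.37 (adjusted p = 0.234), over 42.5 to 71.6 CPM and 37.8, 38.1, 38.9, 39.8 and 52.4 CPM. The age effects of the genotypes differed by -0.34 ± 0.299 (adjusted p = 0.998). Beside this, 3 of 5 B cell markers, 1 of 6 tested macrophage markers and the 1 tested pancreas marker were higher in old KO adipose tissue. Of 7 adipocyte markers, 1 was higher and 1 lower. The part of these cell types in the result was not tested. In muscle *Ldhb* was spread from 104 to 405 CPM in young WT libraries and from 147 to 192 CPM in old ones (-0.52, adjusted p = 0.2).

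Ratios of isozymes within a library do not depend on the library's scaling, and are given per kilobase of exon (GENCODE M21 exon union) as a description without a test. GLUT4 transcripts exceeded GLUT1 transcripts 32.7-fold at the median in muscle (15.4 to 97.0 over 20 libraries) and 3.20-fold in adipose tissue (0.338 to 13.8 over 22 libraries). In liver *Slc2a4* was too low for a ratio. *Hk2* exceeded *Hk1* 28.6-fold in muscle, and was at 0.772 of *Hk1* in adipose tissue and at 0.246 in liver. *Pfkm* exceeded *Pfkl* 588-fold in muscle (415 to 1090), and was at 0.285 in adipose tissue and 0.525 in liver. *Ldhb* was below *Ldha* in all 64 libraries, at 0.153 in adipose tissue, 0.104 in muscle and 0.00234 in liver. Every muscle library was thus on the other side of 1 from every liver library for *Hk2* to *Hk1* and for *Pfkm* to *Pfkl*.

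Within tissues, the ratio of *Slc2a4* to *Slc2a1* moved most. In young WT adipose tissue its log2 value ran from 0.73 to 3.79 with a median of 2.70, and in young KO adipose tissue from -1.56 to 1.44 with a median of 0.87. K5F4284 and K5F4285 were the 2 libraries below 0, where GLUT1 transcripts exceeded GLUT4 transcripts. In muscle the log2 ratio was 3.94 to 6.59 in young WT, 4.99, 5.99, 6.28, 6.53 and 6.60 in old WT, 4.32 to 5.01 in young KO and 5.01 to 5.91 in old KO libraries. The *Ldhb* to *Ldha* ratio in KO adipose tissue ran from -2.52 to -1.38 at 5 months and from -3.62 to -2.86 at 20 months, and these did not overlap, while the WT groups did (-3.31 to -1.82 and -3.04 to -2.63). The 3 young KO libraries with epididymis transcripts held the highest values of their group (-1.38, -1.75 and -1.85). The other young KO libraries were at -2.52, -2.20 and -2.16. W5F5299, the young WT library with such transcripts, held the highest young WT value, -1.82. The part of these transcripts in the ratio was not tested.

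**Figure D4:**
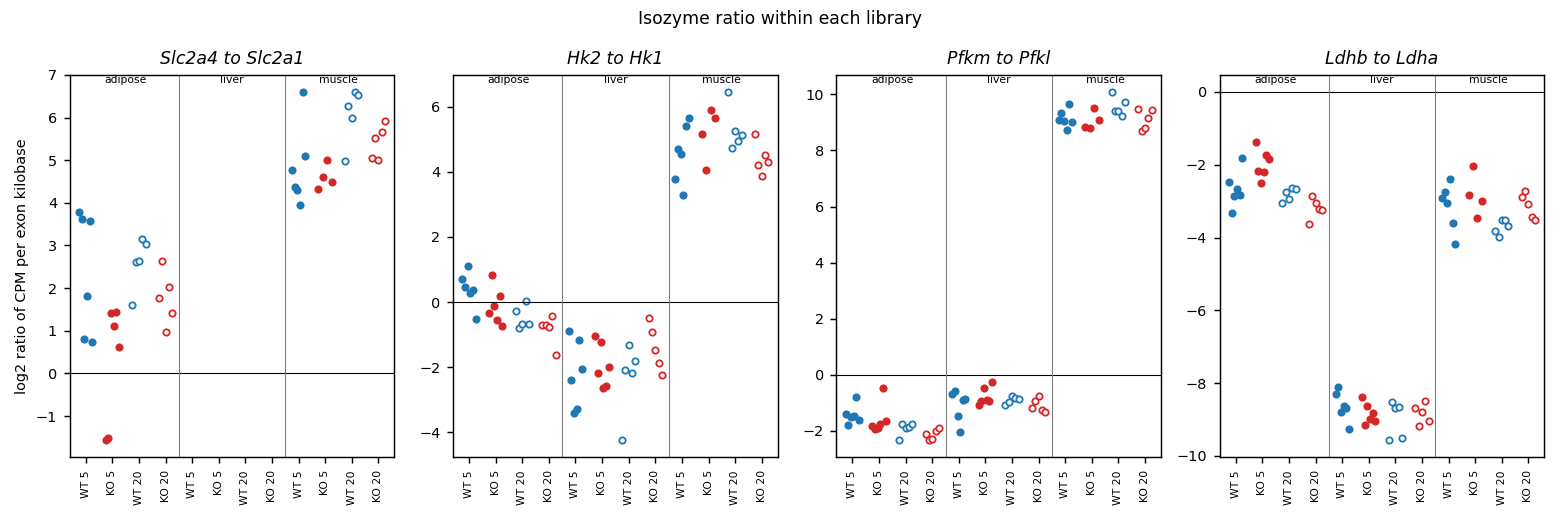
Log2 ratio of 2 isozymes' CPM per exon kilobase in each library, for 4 pairs, by group (WT blue, KO red, filled at 5 months, open at 20 months); liver is left out for Slc2a4 to Slc2a1. Muscle lies above 0 for the first 3 pairs and liver below 0 for all pairs drawn.

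The rest of the pathway, 57 genes in 5 lists, gives the members their surroundings. In WT mice at 5 months 46 of 56 tested genes were called between adipose tissue and liver (16 higher and 30 lower in adipose tissue), where 6 of the 9 members and 69.7% of all 14087 genes were called. Between adipose tissue and muscle it was 46 of 56, 9 of 9 members and 68.9% of all genes, and between liver and muscle 48 of 56, 7 of 9 members and 73.1%. For the comparisons with 6 and 7 of 9 members, the counts lie near the share of all genes, and for adipose tissue against muscle all 9 members were called. Liver held isoforms that are known for that tissue: *Slc2a2* (GLUT2) at 150 ± 84.9 CPM (n = 6) against 0.320 ± 0.382 in adipose tissue (n = 6), and *Pklr* (liver pyruvate kinase) at 92.2 ± 33.6 CPM. The gluconeogenic *Fbp1* and *G6pc* were lower in adipose tissue than in liver by log2 fold changes of -9.78 and -8.62. Muscle held *Aldoa* at 21932 ± 3178 CPM, *Eno3* (muscle enolase) at 6833 ± 943 CPM, *Pgam2* (muscle phosphoglycerate mutase) at 1318 ± 256 CPM and *Slc16a3* (the lactate exporter MCT4) at 522 ± 121 CPM. Adipose tissue exceeded muscle in *Pck1*, at 1874 ± 791 against 8.11 ± 6.03 CPM.

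**Figure D5:**
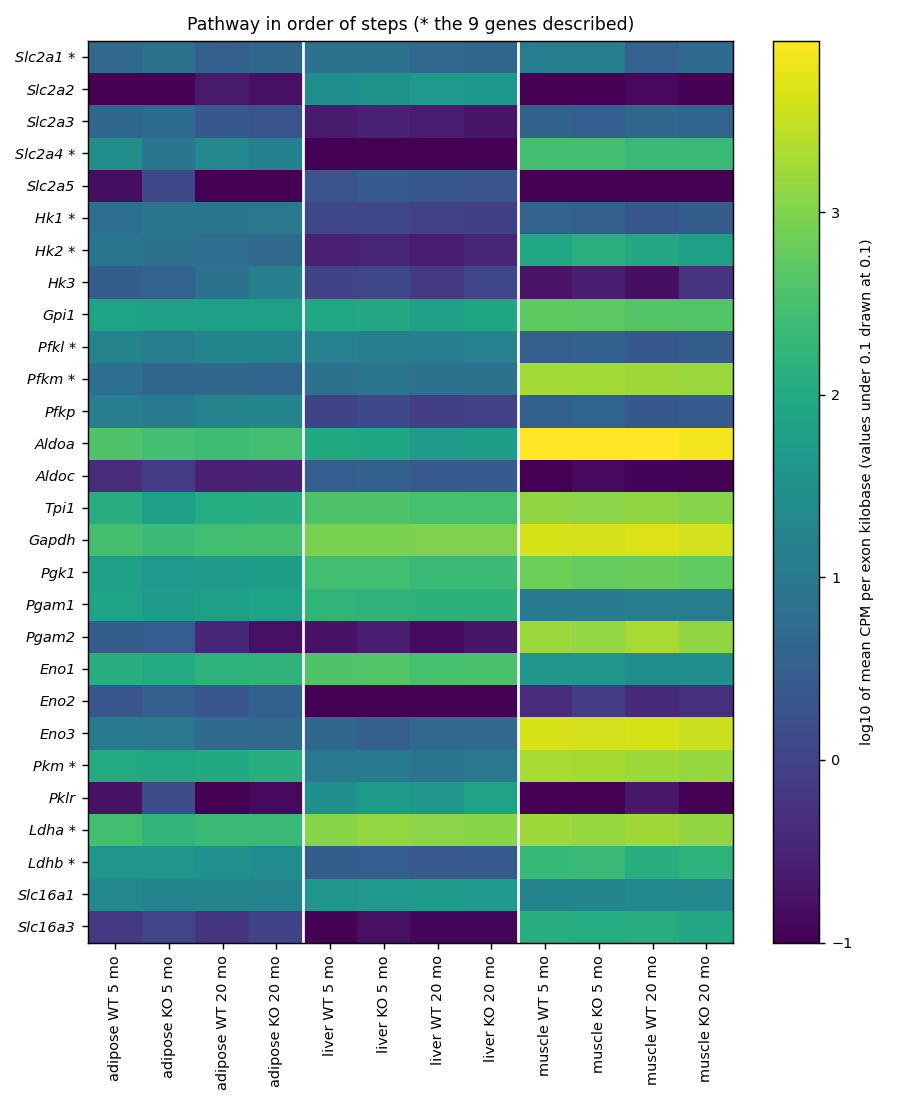
Mean CPM per exon kilobase (log10 colour scale, values under 0.1 drawn at 0.1) of pathway genes in the order of the pathway's steps and in 12 groups; stars mark the 9 genes. Isozymes change between the 3 blocks of tissue columns, and columns of 1 tissue look alike.

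Between genotypes 0 of the other pathway genes were called by limma in any of the 6 comparisons (49 to 52 tested in a tissue). An unadjusted p under 0.05 was found at 5 and 20 months for 13 and 4 of 52 genes in adipose tissue (1692 and 321 of all 14286 genes), for 2 and 0 of 50 in liver (897 and 750 of 12924) and for 1 and 14 of 49 in muscle (543 and 1821 of 13237). With age, 7 of 49 were called in WT muscle, 4 higher and 3 lower, where 18.6% of all genes were called. *Tigar*, whose product lowers fructose 2,6-bisphosphate, rose by 1.17 ± 0.286 (adjusted p = 0.0111), from 114 ± 57.0 (n = 6) to 238 ± 49.8 CPM (n = 5), and *Slc2a12* (GLUT12) rose by 0.81 (adjusted p = 0.00772). *Pcx* (pyruvate carboxylase) changed by -0.75 (adjusted p = 0.0152) and *Txnip*, which restrains glucose uptake, by -0.60 (adjusted p = 0.0267). *Eno1* was lower in both genotypes, by -0.54 in WT (adjusted p = 0.00658) and by -0.55 in KO (adjusted p = 0.0188), and in KO muscle it was the 1 gene called of 49, where 5.57% of all genes were called. *Bpgm* (0.50) and *Mpc1* (0.41) were the other 2 higher in WT muscle.

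In liver, *Mlxipl*, which encodes the glucose-sensing factor ChREBP, was higher at 20 months in WT (0.82 ± 0.172, adjusted p = 0.00613) and in KO (0.88 ± 0.172, adjusted p = 0.00858). Of 50 genes tested, 4 were lower in WT liver: *Slc37a4*, the glucose 6-phosphate transporter (-1.26, adjusted p = 0.0312), *Aldoa* (-0.91, adjusted p = 0.00391), *Mpc2* (-0.53, adjusted p = 0.0269) and *Gpi1* (-0.42, adjusted p = 0.0496). The all-gene share called was 7.19% in WT and 2.99% in KO liver. Directions in WT liver depended on the scaling: with each library rescaled to the same CPM sum, the median of all genes moved by 0.18. Genes called higher and lower then went from 366 and 563 to 1105 and 208. Without the libraries that hold *Xist*, 414 of all genes were called in WT liver, against 929. With age 3 of 7 hepatocyte markers (median log2 fold change of the list -0.86) and 4 of 7 macrophage markers were lower in WT liver, and 1 of 7 and 3 of 7 in KO liver, and their part in these differences was not tested. In KO liver *Slc2a8* (-0.64, adjusted p = 0.02) and *Bpgm* (-0.49, adjusted p = 0.0257) were lower and *Eno3* (0.62, adjusted p = 0.0395) was higher. In WT adipose tissue *Mpc2* of the mitochondrial pyruvate carrier (-0.90, adjusted p = 0.0224) and *Pdhb* of pyruvate dehydrogenase (-0.74, adjusted p = 0.0252) were lower with age, 2 of 52 genes where 10.8% of all genes were called. There 4 of 5 B cell and 4 of 5 T cell markers were higher and 1 adipocyte and 1 mesothelial marker were lower, and their part was not tested. KO adipose tissue had 8 of 52 called, 6 higher and 2 lower, beside 14.2% of all genes, of which 1497 were higher and 536 lower. *Hk3*, a hexokinase of myeloid cells, rose by 1.77 ± 0.393 (adjusted p = 0.00722), from 12.6 ± 5.60 (n = 6) to 48.2 ± 23.6 CPM (n = 5), and 1 of 6 tested macrophage markers was higher too, whose part in the result was not tested. *Pfkfb4* rose by 1.20 (adjusted p = 0.0149), and *Pfkp*, *Dlat*, *Tigar* and *Pgam1* were also higher. *Slc2a3* (GLUT3) was lower (-1.27, adjusted p = 0.0103), as was *Mlxipl* (-0.74, adjusted p = 0.0246).

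The genes whose levels were most like each member's were found by Pearson's r of log2(CPM + 1) over 64 libraries, among the 11267 genes averaging 5 CPM or more. Across tissues r was high for many genes, since the libraries share tissue: *Mypn* was closest to *Pfkm* (0.994), *Slc25a4* to *Pkm* (0.995), *Podxl2* to *Slc2a4* (0.991), *Fhl1* to *Hk2* (0.985), *Flna* to *Hk1* (0.963), *Smoc1* to *Pfkl* (0.965), *Sdhd* to *Ldha* (0.973), *Cuedc1* to *Ldhb* (0.979) and *Ell* to *Slc2a1* (0.855). After the group means were taken off, the closest genes were *Ccnl1*, *Ell* and *Csrnp1* for *Slc2a1* (0.76, 0.76 and 0.75), *Cdsn*, *A530016L24Rik* and *Aoc3* for *Slc2a4* (0.85, 0.83 and 0.83), and *Acat1*, *Acadm* and *Decr1*, which encode enzymes of mitochondrial ketone and fatty acid metabolism, for *Ldha* (0.79, 0.78 and 0.76). For *Ldhb* they were *Acadvl*, *Gtpbp6* and *Hint2* (0.69, 0.68 and 0.68), and for *Pkm* they were *Capg*, *Pld3* and *S100a4* (0.68, 0.64 and 0.63).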

How the data were processed

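The table was deposited as CPM made with CLC software, per the file headers. Its values are a read signal that the authors scaled by a factor per library before depositing it. 100% of values were whole multiples of 1 read (within 0.01 read). The builds GRCm38.p6 and mm10 are named in the submitters' processing notes. The counting settings and use of strand are not given in the sources used here. Names came from the RefSeq gene table of GRCm38.p6 (35336 of 36332 IDs matched), and exon lengths from GENCODE M21. 1 ID was listed 2 times and its rows were summed. Genes had to pass 1 CPM in a number of libraries no lower than the size of the smallest group. Values were transformed to log2(CPM + 1) and fitted in limma 3.58.1 under R 4.3.3 with an intensity trend, over 4 groups per tissue, or over the 18 WT libraries of 5 months between tissues. P-values were adjusted by Benjamini-Hochberg over all genes, and the calls use 0.05. The unit was planned as CPM and treated as scaled signal. Alternatives were other pseudocounts, no filter, other scalings, an *Xist* covariate or libraries left out, a 2-group fit, and edgeR 4.0.16 and DESeq2 1.42.0 on recovered reads (for tissues, chosen after seeing the data). Pathway genes named in the text are the up to 4 called genes of largest fold change per comparison that average 5 CPM or more, and *Eno1*, *Gpi1*, *Bpgm*, *Mpc1*, *Pfkp*, *Dlat*, *Tigar*, *Pgam1*, *Pklr* and *Aldoa* were named after their values were seen. Some genes of the rule are not reported here. Members and lists were chosen with earlier results of these data known. Depth limits precision for *Slc2a4* in liver, where 1 read is worth 0.0511 to 0.0882 CPM.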

Additional observations from a re-analysis of the deposited data

Results flagged for a closer look

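In 12 of 104 groups of 4 to 6 libraries examined (9 genes in up to 12 groups), 1 library lay apart from the others by Dixon's test. Chance does this in about 1 in 20 groups of independent, normally distributed values. The test used CPM without a log, and the genes share libraries, so the count cannot be set against that rate. In muscle these were *Slc2a1* in WT at 20 months (W18S41, 23.4 CPM), *Pfkl* in the same library (6.97 CPM, low), *Ldha* in WT at 20 months (W18S42, 3802 CPM, the library with hepatocyte markers), *Hk1* in WT at 5 months (W5S5042, 33.0 CPM), *Pfkm* in WT at 5 months (W5S5277, 6123 CPM) and *Hk2* in KO at 20 months (K18S48, 706 CPM). In adipose tissue they were *Hk1* in WT at 5 months (W5F5299, 43.1 CPM, a library with epididymis transcripts), *Pfkm* in KO at 5 months (K5F5218, 28.5 CPM, also with them), *Ldhb* in WT at 20 months (W18F24, 52.4 CPM) and *Ldhb* in KO at 20 months (K18F27, 55.2 CPM). In WT liver at 20 months they were *Hk1* (W18L03, 6.03 CPM) and *Pfkm* (W18L01, 15.3 CPM, low).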

How the results depend on the processing

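Of 340 counts of called members under an alternative, 313 were equal to the reported count or within 1.5 times of it. Without the libraries that hold *Xist*, 1 member was called in adipose tissue for KO against WT at 5 months (0 in the report), 3 in KO adipose tissue with age (against 1), 1 in KO liver (against 0) and 1 in WT muscle (against 3). Over all genes this setting called 534 in adipose tissue for KO against WT at 5 months (15 in the report). In WT muscle with age it called 855 of all genes (against 2463). Without the libraries with epididymis transcripts 1 member was called in WT and 2 in KO adipose tissue with age, and 3497 of all genes in WT (against 1539). DESeq2 called 1 member for KO against WT in adipose tissue at 5 months, 6 in WT muscle and 3 in KO muscle with age. With 2 groups in the fit, 1 member was called in WT and 0 in KO adipose tissue with age. In KO muscle that fit called 3 members and 1778 of all genes (against 737). With no filter 0 members were called in KO adipose tissue and 0 in KO muscle, and with each library rescaled to the same CPM sum 0 in KO muscle. For the other settings only the range of the all-gene counts is given, below. Leaving out 1 library gave 0 to 1 called with age in WT adipose tissue, KO adipose tissue, KO liver and KO muscle. The cause of these changes was not tested. Where libraries were left out, the number of samples was also smaller, and its part was not tested either. Rescaling to the same CPM sum turned *Pfkm* in adipose tissue against liver to 0.82 (adjusted p = 0.00718), and moved the median of all genes by 0.97 (adipose tissue against liver), 0.73 (adipose tissue against muscle), -0.20 (liver against muscle), 0.18 and 0.17 (WT and KO liver with age) and 0.12 (KO muscle with age). Genes called higher and lower then went from 5024 and 4799 to 9930 and 1775, from 5461 and 4248 to 8963 and 2078, from 5129 and 5165 to 4236 and 5983, from 366 and 563 to 1105 and 208, from 217 and 169 to 578 and 38, and from 477 and 260 to 1047 and 162, in that order. They went from 1497 and 536 to 924 and 655 in KO adipose tissue and from 1446 and 1017 to 1776 and 792 in WT muscle with age. Counts over all genes moved by over 1.5 times: 15 ranged from 2 to 534 (adipose tissue, KO against WT at 5 months), 9 from 0 to 47 (liver, 5 months), 3 from 1 to 18 (liver, 20 months) and 4 from 1 to 42 (muscle, 20 months). With age 1539 ranged from 709 to 3497 and 2033 from 653 to 3297 (WT and KO adipose tissue), 929 from 414 to 1620 and 386 from 104 to 778 (liver), and 2463 from 855 to 3838 and 737 from 129 to 1778 (muscle). Groups compared by genotype or age share no number in their codes, so no paired analysis was possible there. Between tissues, 14 same-numbered pairs had correlations of -0.074 to 0.315 with a median of 0.171, and 11 of them were over 0.1. The 94 pairs with different numbers had -0.279 to 0.265 with a median of -0.048, and 23 were over 0.1. The main fits between tissues did not use the number. With the number as a replicate block 6, 8 and 7 members were called (6, 9 and 7 in the report). Precision is limited by depth for *Slc2a4* in liver.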
